A study of Mus musculus with 23 samples.

Results

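The 10 genes described here act in macroautophagy, the pathway by which a cell encloses cytoplasm in a double membrane and delivers it to the lysosome. They were chosen by name, as autophagy genes linked to pancreatitis, and all 10 were found among the 18512 gene symbols of the count files. They are *Vmp1*, *Sqstm1*, *Map1lc3a*, *Map1lc3b*, *Gabarap*, *Gabarapl1*, *Becn1*, *Atg5*, *Atg7* and *Tfeb*. RNA was sequenced from the head of the pancreas of C57BL/6 mice aged 6 to 8 weeks. The baseline group was not injured (8 mice, 4 female and 4 male). The other mice received caerulein, a cholecystokinin analogue that overstimulates acinar cells, at 50 µg/kg per injection with 8 injections a day for 2 days. They were collected at day 7 (8 mice, 4 female and 4 male) or day 14 (7 mice, 3 female and 4 male) post-injury, and no label gives an injection for the baseline mice. No label gives a genetic change in any group, and whole tissue was used without sorting of cells. Neither the labels nor the methods name a vehicle-injected group.

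Autophagosome formation starts with the ULK kinase complex and with the class III PI3-kinase complex that holds Beclin 1. The membrane then grows from the endoplasmic reticulum with the help of VMP1, and ATG7 and ATG5 act in attaching ubiquitin-like ATG8 proteins to the lipid phosphatidylethanolamine. In the acinar cell the pathway removes damaged organelles and zymogen granules, and impaired autophagy with build-up of the receptor p62 is a known feature of experimental pancreatitis. Messenger RNA levels are not a measure of autophagic flux, and no protein was measured here.

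The ATG8 family turned out to hold the only member that changed, and its coding ends are shown because they carry the feature that the proteins share and the differences that let short reads be assigned. The last 60 bases of each coding sequence, from the GENCODE vM21 transcripts of GRCm38, are given 5′ to 3′ on the plus strand, in the final coding exon. Capitals mark the codon of the C-terminal glycine to which the lipid is joined once the protease ATG4 has removed what follows.
*Map1lc3a*, chr2:155277578-155277637: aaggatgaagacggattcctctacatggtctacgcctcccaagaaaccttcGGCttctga
*Map1lc3b*, chr8:121596711-121596770: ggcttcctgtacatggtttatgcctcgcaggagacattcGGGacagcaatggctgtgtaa
*Gabarap*, chr11:69994465-69994524: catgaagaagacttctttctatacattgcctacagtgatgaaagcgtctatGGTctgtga
*Gabarapl1*, chr6:129541108-129541167: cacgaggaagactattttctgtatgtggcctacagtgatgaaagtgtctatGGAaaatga
The glycine is codon 120 in the 2 LC3 genes and codon 116 in the 2 GABARAP genes, with 5 codons after it in *Map1lc3b* and 1 in each of the others. Over the whole coding sequence, *Map1lc3a* and *Map1lc3b* were identical at 76.5% of aligned bases and *Gabarap* and *Gabarapl1* at 74.9%, while pairs across the subfamilies were identical at 51.4% to 53.8%. No window of 75 bases, the read length, was shared between these 4 transcripts. Of the *Map1lc3b* windows 89.1% occur in no other gene (the rest in *Gm12727*, *Gm6054* or *Gm6055*), and of the *Gabarapl1* windows 82.5% (the rest in *1700101I11Rik*, which overlaps it on the opposite strand), so part of their reads may not be told apart from those genes.

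All 10 genes had enough counts for testing. The libraries held 7059890 to 9567446 counts, and 12195 genes were tested in edgeR with a quasi-likelihood F test that adjusted for sex and used the 23 mice together. A gene is called changed where its adjusted *p* does not exceed 0.05, and a DEG must also reach a 1.5-fold change. Levels are CPM (counts as parts of a fixed library total) scaled with TMM factors, which compare libraries through the bulk of their genes rather than through their total counts. The acinar marker list (10 genes, all detected) summed to between 378300 and 567400 CPM in baseline mice, between 227500 and 340400 in day 7 mice and between 355400 and 414400 in day 14 mice, as is usual for pancreas, where a few digestive enzyme transcripts fill most of a library. The 20 most abundant genes took 66.4% to 71.2% of counts in baseline mice, 55.3% to 62.8% in day 7 mice and 63.9% to 66.2% in day 14 mice.

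The order of the genes by level was compared per kilobase of transcript (CPM divided by the length of the principal transcript), as a mean ± SD over 23 mice. *Gabarap* was highest at 63.0 ± 5.01 CPM per kb, followed by *Sqstm1* at 57.9 ± 4.24, and *Gabarap* exceeded *Sqstm1* in 20 of 23 mice. *Map1lc3b* (22.7 ± 2.78) stood above *Gabarapl1* (18.5 ± 2.19) in 23 of 23 mice. *Gabarapl1* and *Vmp1* (17.2 ± 1.94) were close, with *Gabarapl1* above in 16 mice, so their order was within the spread. *Map1lc3a* followed at 12.5 ± 2.23 CPM per kb. *Becn1* (7.73 ± 0.682) and *Atg5* (7.55 ± 0.930) could not be placed in order, since *Becn1* was above in 13 of 23 mice. *Atg7* (2.30 ± 0.274) and the transcription factor gene *Tfeb* (1.52 ± 0.489) were the lowest, and *Atg7* was above in 20 mice.

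**Figure D1:**
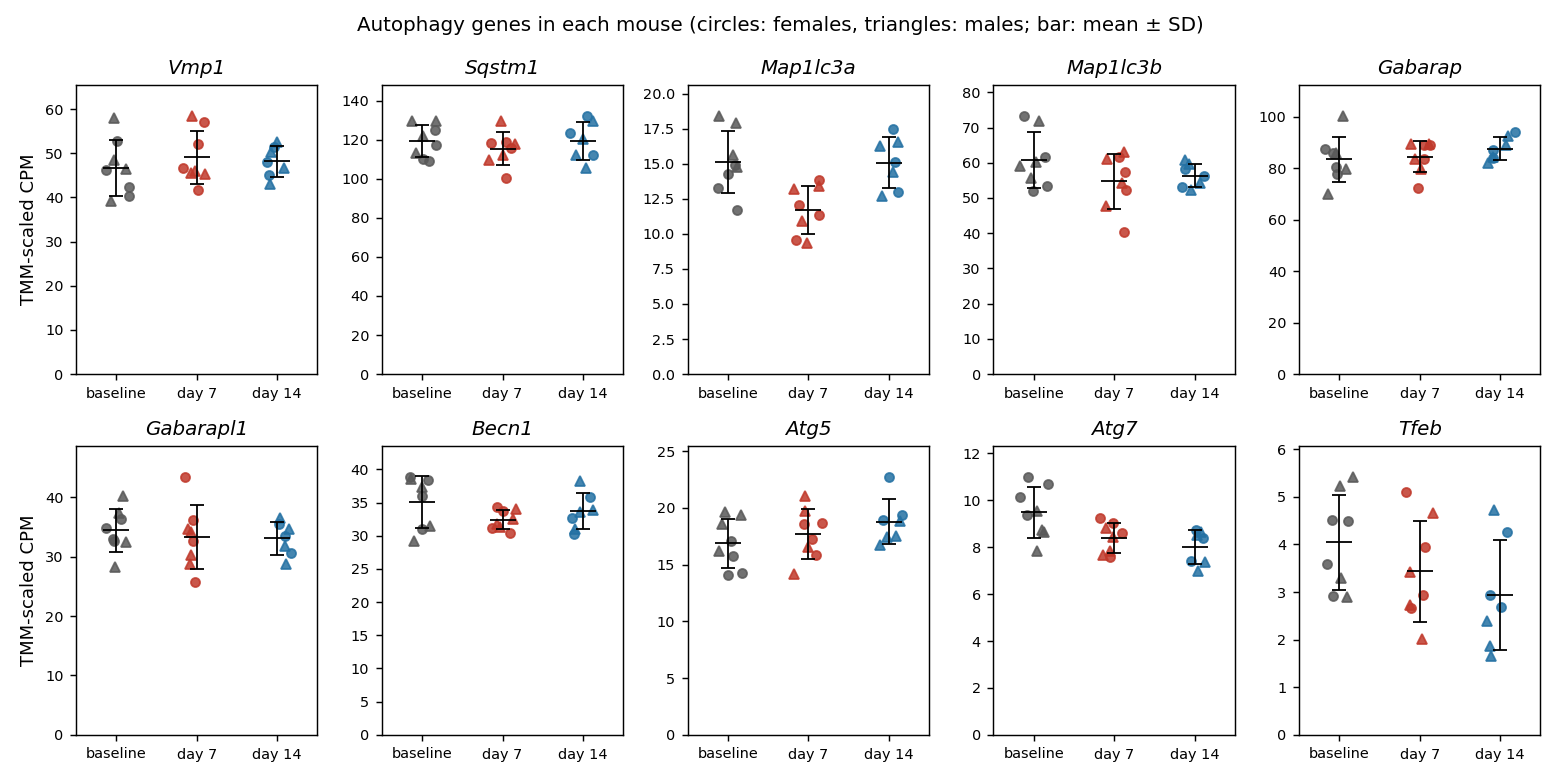
Level of each of the 10 autophagy genes in every mouse, in TMM-scaled CPM on linear axes that start at 0, at baseline, day 7 and day 14. Circles are females, triangles males, and bars the mean ± SD. In *Map1lc3a* the day 7 mice lie between 9.38 and 13.8 CPM with a mean of 11.7, below the baseline mean of 15.1. In none of the 10 genes are 2 groups fully apart, and the share of all genes with groups fully apart was not counted.

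At day 7 post-injury, 1 of the 10 autophagy genes had changed. *Map1lc3a*, which encodes LC3A, an ATG8 protein of the autophagosome membrane, fell by 22.4% (95% interval −32.6% to −10.6%). The other 9 genes did not pass the test, and no member was a DEG in edgeR or in DESeq2. Of all genes tested, 18.6% were called at day 7 and 5.13% were DEGs, so 1 call in 10 members was not above the background of the comparison. At an unadjusted *p* under 0.05 there were 2 members, *Map1lc3a* and *Atg7*, beside 3925 of all 12195 genes. The median log2 fold change of the 10 members was −0.08, beside 0.02 for all genes, and 3 of the 10 values were positive. The 95% interval of the fold change lay within 1.5-fold in both directions for 9 of 10 members (every member but *Tfeb*), and it did so for 69.4% of all genes.

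*Map1lc3a* (chr2:155276297-155278073, plus strand) measured 11.7 to 18.4 CPM at baseline with a median of 14.9, from 85 to 127 counts per mouse. The day 7 mice had 9.38 to 13.8 CPM with a median of 11.7, and the day 14 mice 12.7 to 17.5 CPM with a median of 15.1. All 8 mice at day 7 were below the baseline median and 4 of them were below every baseline mouse, whereas 5 of 7 mice at day 14 were above every day 7 mouse. The log2 fold change at day 7 was −0.37 (SE 0.10, adjusted *p* = 0.00988), and the log2 fold change at day 14 against baseline was −0.0028 (95% interval −0.21 to 0.21, adjusted *p* = 0.996). Set against day 7 directly, day 14 was higher by a log2 of 0.36 (95% interval 0.16 to 0.57), with an unadjusted *p* of 0.00119 and an adjusted *p* of 0.0632, and 1.29% of all genes were called in that comparison. That last value stood on the threshold, since DESeq2 called it (adjusted *p* = 0.0400), as did edgeR without day 7 mouse 11 (0.0317) or without day 14 mouse 21 (0.0347). In bulk tissue, fewer cells that express a gene and less of its RNA per cell cannot be told apart.

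The fall in *Map1lc3a* at day 7 was held under each of the 23 fits that left out 1 mouse, with log2 fold changes of −0.42 to −0.32 and adjusted *p*-values of 0.00450 to 0.0265. By sex, baseline females had 11.7 to 14.9 CPM and day 7 females 9.59 to 13.8, which overlapped. Baseline males had 14.8 to 18.4 CPM and day 7 males 9.38 to 13.4, which did not. The share of all genes whose males were fully apart was not counted. In females alone the log2 fold change was −0.22 and did not pass the test (adjusted *p* = 0.374), with 4.31% of all genes called. In males alone it was −0.53 (adjusted *p* = 0.0226), with 7.30% of all genes called. The difference of these changes was itself not called (log2 −0.29, 95% interval −0.70 to 0.11, adjusted *p* = 0.947).

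Marker genes of several cell types moved at the same time point. Of 10 acinar markers, 9 were lower at day 7 and none higher, led by *Pnlip*, *Sycn* and *Cpa1* with log2 fold changes of −0.88, −1.15 and −0.87. Of 10 macrophage markers 8 were higher, and their summed level was 56.8 to 212 CPM in baseline mice, 135 to 313 in day 7 mice and 93.3 to 180 in day 14 mice. Of 9 fibroblast markers 8 were higher, with sums of 332 to 653, 622 to 1198 and 531 to 750 CPM. Endothelial markers (2 of 6 lower) summed to 82.0 to 126 CPM at baseline and 64.1 to 109 at day 7, and ductal (3 of 7) and islet markers (4 of 7) were called higher only. The 4 lymphocyte and 5 adipocyte genes tested gave no call, and the neutrophil genes were too low for testing. None of the macrophage, fibroblast or acinar markers was at 0 in any group. The part of these shifts in the level of *Map1lc3a* was not tested.

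**Figure D2:**
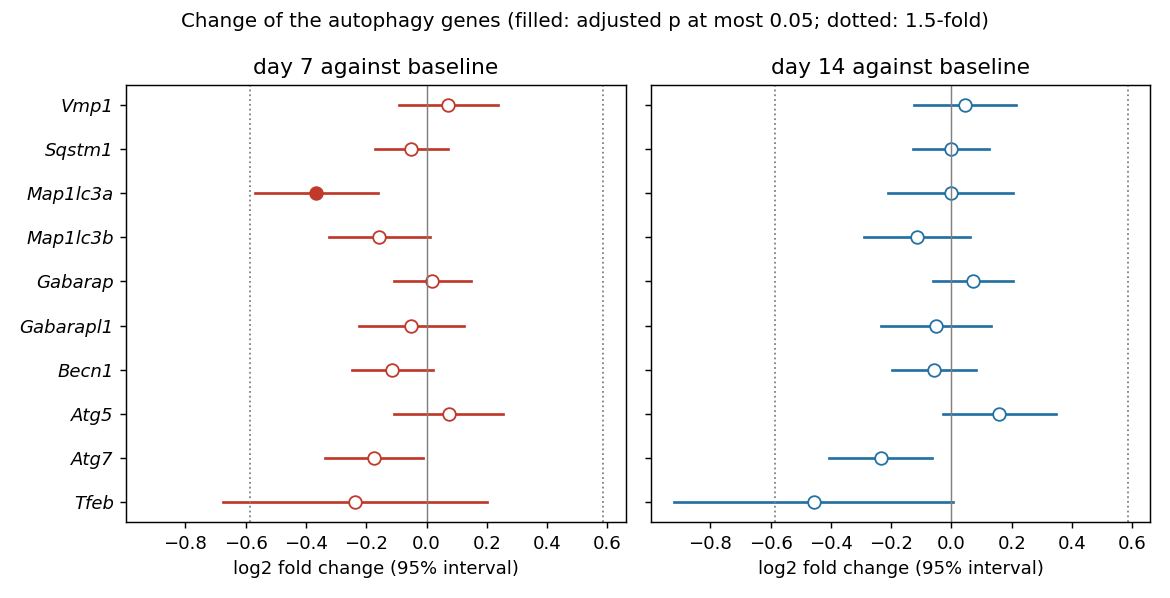
Log2 fold change of each of the 10 autophagy genes with its 95% interval, day 7 against baseline on the left and day 14 against baseline on the right, from the edgeR fit of 23 mice. Filled points have an adjusted *p* of at most 0.05 and dotted lines mark 1.5-fold. *Map1lc3a* at day 7 (−0.37) is the only filled point, and *Tfeb* has the widest intervals.

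The other ATG8 members did not pass the test at either time point. *Map1lc3b* (chr8:121590361-121598760, plus strand) encodes LC3B, the protein most used as a marker of autophagosomes. Baseline mice had 51.9 to 73.3 CPM, day 7 mice 40.4 to 63.0 and day 14 mice 52.4 to 60.9, and the groups overlapped. Its log2 fold changes were −0.16 (95% interval −0.32 to 0.01, adjusted *p* = 0.190) and −0.11 (−0.29 to 0.06, adjusted *p* = 0.627). *Gabarap* (chr11:69991143-69994951, plus strand), whose protein acts late in autophagosome maturation, had 70.0 to 100.3 CPM in the baseline group, 72.3 to 89.6 in the day 7 group and 82.2 to 94.2 in the day 14 group. Its fold changes were among the most tightly bounded, with log2 values of 0.02 (−0.11 to 0.15) and 0.07 (−0.06 to 0.20). *Gabarapl1* (chr6:129533160-129542346, plus strand) had 28.2 to 40.2, 25.7 to 43.5 and 28.8 to 36.4 CPM, with log2 fold changes of −0.05 at both time points. *Gabarapl2*, the remaining ATG8 gene of the list, was not a member and gave −0.02 at day 7 (adjusted *p* = 0.872).

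*Sqstm1* (chr11:50199366-50210827, minus strand) encodes p62, which binds ubiquitinated cargo and is itself degraded by autophagy. Baseline mice had 109 to 130 CPM with a median of 120, 101 to 130 at day 7 with a median of 117, and 105 to 132 at day 14 with a median of 121. The 3 ranges lay almost on top of each other. The log2 fold change was −0.05 at day 7 (95% interval −0.17 to 0.07, adjusted *p* = 0.592) and −0.0016 at day 14 (−0.13 to 0.12, adjusted *p* = 0.997), and the interval at day 7 ran from a change of −11.2% to one of 5.04%. *Nbr1*, a receptor that works beside p62, was among the 5 genes whose level followed *Sqstm1* most closely from mouse to mouse. After the mean of each time point was subtracted, Pearson's r over 23 mice was 0.87 for *BC004004*, 0.86 for *Uck2*, 0.83 for *Nbr1*, 0.83 for *Krt18* and 0.83 for *Adipor1*, among 6772 genes compared. All points of such a correlation share the libraries and their scaling.

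*Vmp1* (chr11:86583865-86683836, minus strand) encodes vacuole membrane protein 1, a transmembrane protein of the endoplasmic reticulum that was first found as a gene induced in acute pancreatitis. It measured 39.2 to 58.0 CPM at baseline with a median of 46.3, 41.6 to 58.5 at day 7 with a median of 46.3, and 43.0 to 52.6 at day 14 with a median of 48.0. The groups overlapped throughout. The log2 fold change was 0.07 at day 7 (95% interval −0.09 to 0.24, adjusted *p* = 0.562) and 0.04 at day 14 (−0.13 to 0.22, adjusted *p* = 0.895). The genes most like *Vmp1* by the same measure were *Ndufs1* (r = 0.90), *Ufsp2* (0.90), *Sec11c* (0.88), *Slc35b1* (0.88) and *Serp1* (0.86). *Sec11c*, a signal peptidase subunit, and *Serp1* act at the endoplasmic reticulum, and the site of the others is not described here.

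The end of *Vmp1* overlaps the microRNA gene *Mir21a* on the same strand, and the mature microRNA is shown because its locus lies within the member's own.
mmu-miR-21a-5p, chr11:86584120-86584141 (minus strand): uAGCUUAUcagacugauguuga
The sequence is that of RefSeq on GRCm38.p6, written 5′ to 3′ with the seed (bases 2 to 8) in capitals. *Mir21a* had 0 to 3 counts in a mouse, which is at or below the floor of 3 counts used here. Such counts from a library of long RNA fragments do not measure the mature microRNA, and no comparison was made.

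*Becn1* (chr11:101285952-101302286, minus strand) encodes Beclin 1, the scaffold of the class III PI3-kinase complex. Its level was 29.2 to 38.9 CPM at baseline with a median of 36.6, 30.4 to 34.4 at day 7 with a median of 32.1, and 30.3 to 38.2 at day 14 with a median of 33.6. All 8 day 7 mice were below the baseline median, and all of them were inside the baseline range. The log2 fold change was −0.11 at day 7 (95% interval −0.25 to 0.02, adjusted *p* = 0.234) and −0.06 at day 14 (adjusted *p* = 0.805). Only 56.9% of the 75-base windows of the *Becn1* transcript occur in no other gene, since *Cntd1* overlaps it on the opposite strand. The strand setting of the counting is not given in the sources used here, so reads of the pair may not be told apart.

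*Atg7* (chr6:114643097-114860614, plus strand) encodes the E1-like enzyme that activates ATG8 proteins and ATG12. It measured 7.84 to 11.01 CPM at baseline with a median of 9.47, 7.60 to 9.25 at day 7 with a median of 8.52, and 6.99 to 8.74 at day 14 with a median of 8.40. Every one of the 15 mice after injury was below the baseline median, and 3 mice at each time point were below every baseline mouse. That median pools the sexes, and baseline females had 9.38 to 11.01 CPM beside 7.84 to 9.55 in baseline males. Day 7 males had 7.66 to 8.81 CPM and day 14 males 6.99 to 8.66, which overlapped the baseline males. The log2 fold change was −0.18 at day 7 (SE 0.08, unadjusted *p* = 0.0355, adjusted *p* = 0.125) and −0.23 at day 14 (SE 0.08, unadjusted *p* = 0.00896, adjusted *p* = 0.175), so neither passed the adjustment over 12195 genes. In females alone these values were −0.26 and −0.34, and in males alone −0.10 and −0.15, and none of them was called. Its biological coefficient of variation in the edgeR fit was 5.48%, lower than that of all but 0.648% of genes, beside a median of 12.7% for all genes. That measure leaves out counting error, and *Atg7* had 45 to 115 counts per mouse. The coefficient of variation of its CPM within a group ran from 7.63% to 11.5%.

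*Atg5* (chr10:44268358-44364291, plus strand) encodes the partner of ATG12 in the complex that completes lipidation. Baseline mice had 14.1 to 19.6 CPM, day 7 mice 14.2 to 21.1 and day 14 mice 16.7 to 22.8, with medians of 16.6, 17.9 and 18.9. All 7 mice at day 14 were above the baseline median, but 6 of them stayed inside the baseline range. The log2 fold changes were 0.07 (95% interval −0.11 to 0.25, adjusted *p* = 0.599) and 0.16 (−0.03 to 0.35, adjusted *p* = 0.487).

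*Tfeb* (chr17:47737030-47792419, plus strand) encodes the transcription factor that switches on lysosomal and autophagy genes, and it is regulated mainly through its location in the cell. It was the least abundant member, with 15 to 68 counts per mouse. Its level was 2.91 to 5.42 CPM at baseline with a median of 4.04, 2.01 to 5.10 at day 7 with a median of 3.18, and 1.66 to 4.73 at day 14 with a median of 2.69. The groups overlapped widely, and the coefficient of variation within a group ran from 24.8% to 39.6%. The log2 fold change was −0.24 at day 7 (95% interval −0.67 to 0.20, adjusted *p* = 0.466) and −0.46 at day 14 (−0.92 to 0.01, adjusted *p* = 0.383). A change of up to 37.3% downward at day 7 and 47.2% downward at day 14 lay inside the interval. The biological coefficient of variation of *Tfeb* in the fit was 27.1%, higher than that of 87.5% of genes.

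At day 14 post-injury none of the 10 autophagy genes was called by edgeR or by DESeq2, and 1.57% of all genes were called by edgeR, with 0.787% being DEGs. At an unadjusted *p* under 0.05 there was 1 member, *Atg7*, beside 1618 of all 12195 genes. The median log2 fold change of the members was −0.03, beside 0.01 for all genes. Intervals lay within 1.5-fold for 9 of 10 members and for 74.2% of all genes. Both comparisons used the same 8 baseline mice.

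No member was called between the sexes. Over all time points 0 of 10 genes were called by edgeR or DESeq2, none had an unadjusted *p* under 0.05, and 0.574% of all genes were called. The smallest *p* was that of *Atg7*, lower in males by a log2 of 0.13 (95% interval of the male-minus-female difference −0.26 to 0.01, unadjusted *p* = 0.0824). A difference between the sexes in the change after injury was called for 0 of 10 members at day 7 (0.00773% of all genes) and for 0 of 10 at day 14 (0% of all genes). The only unadjusted *p* under 0.05 among these was that of *Atg5* at day 14, with a log2 difference of −0.49 (adjusted *p* = 1 in edgeR). Its mean level was 15.3 ± 1.42 CPM (SD, n = 4) at baseline and 20.4 ± 2.10 (n = 3) at day 14 in females, beside 18.5 ± 1.57 (n = 4) and 17.6 ± 0.909 (n = 4) in males.

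The sign of most members differed between scalings of the libraries. When counts were scaled by their totals in place of TMM, the median log2 fold change of all genes became 0.47 at day 7, then 0.22 at day 14, and −0.25 for day 14 against day 7. Under that scaling 8 of 10 members were called higher at day 7, all but *Map1lc3a* and *Tfeb*, while 76.6% of all genes were called. *Map1lc3a* then had a log2 fold change of 0.083 (adjusted *p* = 0.351). At day 14, 4 members were called (*Vmp1*, *Sqstm1*, *Gabarap* and *Atg5*) along with 24.9% of all genes. A scaling moves all genes nearly alike, so the number of members below the median of all genes, 8 of 10 at day 7 and 7 of 10 at day 14, is set almost independently of it. The share of calls that were higher moved as well, from 47.7% of all calls at day 7 with TMM to 99.3% with total counts and 71.1% with total counts without the 20 most abundant genes.

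**Figure D3:**
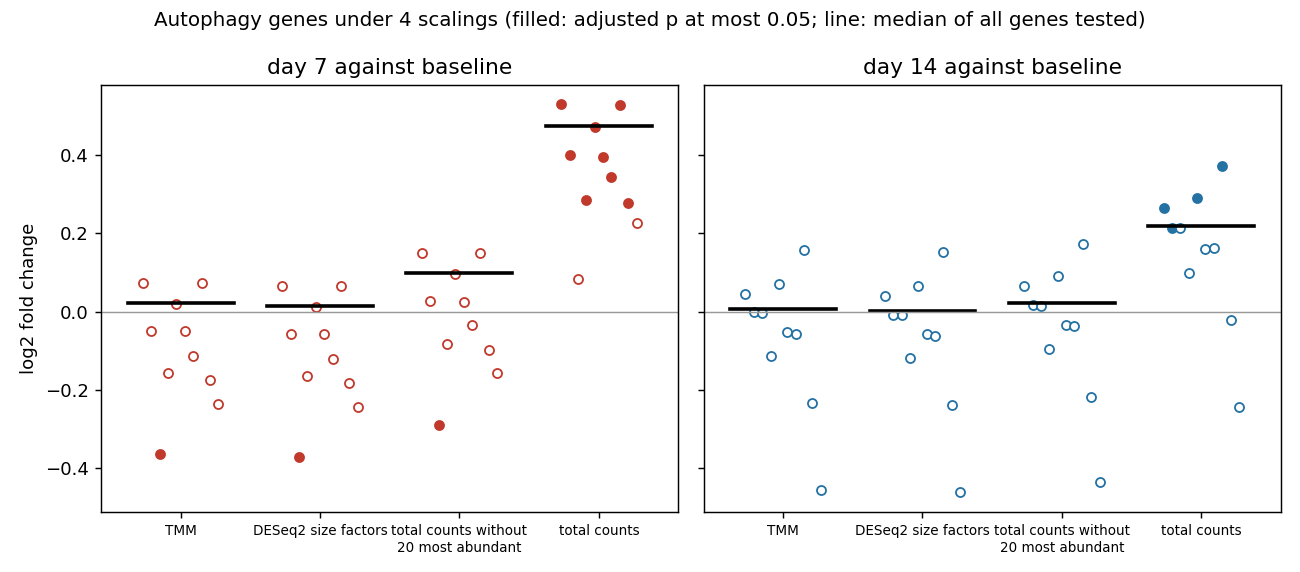
Log2 fold changes of the 10 autophagy genes under 4 scalings of the libraries, for day 7 (left) and day 14 (right) against baseline. Each point is a gene, filled where the adjusted *p* is at most 0.05, and the black line is the median of all genes tested. Total counts lift the line to 0.47 at day 7 and 0.22 at day 14 and the points with it, as a scaling moves all genes nearly alike.

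The summed share of the 4 ATG8 members shows the same on the raw counts. *Map1lc3a*, *Map1lc3b*, *Gabarap* and *Gabarapl1* together made up 0.0166% ± 0.00125 (SD, n = 8) of all counts at baseline, 0.0215% ± 0.000859 (n = 8) at day 7 and 0.0190% ± 0.000704 (n = 7) at day 14. The 8 day 7 mice (0.0206% to 0.0232%) were all above the baseline mice (0.0151% to 0.0187%) and above the day 14 mice (0.0180% to 0.0201%). With total counts as the scaling, 76.6% of all genes were called at day 7, and 99.3% of those calls were higher. The share of all genes with groups fully apart on this measure was not counted. Exact two-sided permutation tests gave *p* = 1.55e-04 for day 7 against baseline and for day 14 against day 7, the smallest that these group sizes allow, and *p* = 0.00171 for day 14 against baseline. Adjusted over the 3 comparisons the values were 2.33e-04, 2.33e-04 and 0.00171. Of the counts left without the 20 most abundant genes, the share was 0.0543% ± 0.00316 in baseline mice, 0.0543% ± 0.00422 in day 7 mice and 0.0544% ± 0.00135 in day 14 mice, and no comparison passed (adjusted exact permutation *p* = 0.962 for each). The groups then overlapped.

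**Figure D4:**
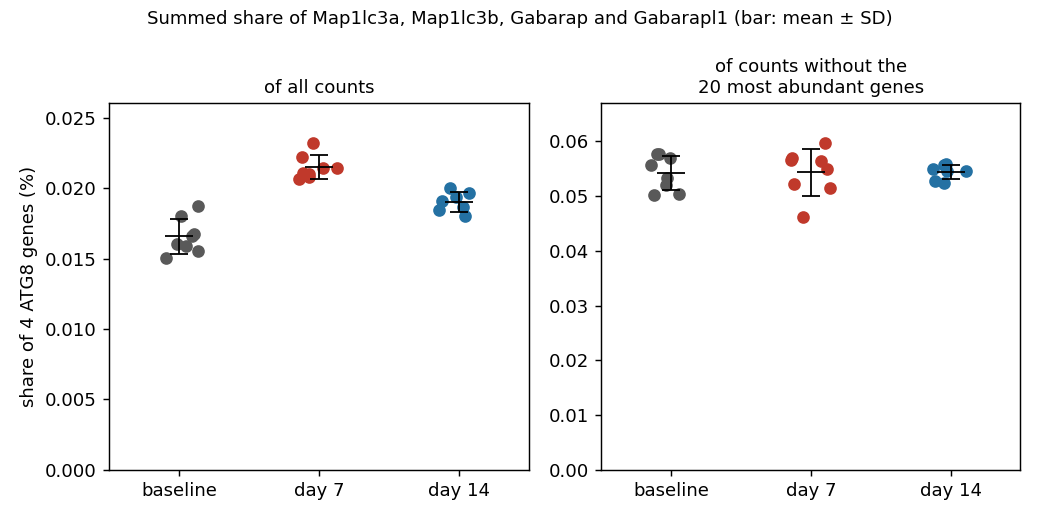
Summed share of *Map1lc3a*, *Map1lc3b*, *Gabarap* and *Gabarapl1* in each mouse, in percent of all counts (left) and of the counts without the 20 most abundant genes (right), with bars for the mean ± SD and both axes starting at 0. On the left the day 7 mice (0.0206% to 0.0232%) lie above all others, and on the right the 3 groups overlap around 0.0543%. The share of all genes with groups fully apart was not counted.

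The members were set beside the other genes of the pathway, sorted into 8 lists by step. Values of these genes and of the target genes below are given with TMM scaling only. Total counts moved the median log2 fold change of all genes at day 7 to 0.47, so the directions given here hold for TMM. Of the 59 tested genes that are not members, 3 were higher and 10 lower at day 7, which is 22.03% beside 18.6% of all genes, and none was a DEG in this fit. With the members the count was 3 higher and 11 lower of 69 genes, beside 8.86% of all genes higher and 9.70% lower, and their median log2 fold change was −0.06. At day 14 none of the 69 was called by edgeR, with 9 at an unadjusted *p* under 0.05 and a smallest adjusted *p* of 0.0850.

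In the ULK initiation complex 1 of 5 genes was higher and 1 lower. *Ulk1*, the kinase that starts autophagy, measured 20.5 to 33.1 CPM at baseline and 14.8 to 25.6 at day 7, with 4 of 8 mice below every baseline mouse. Its log2 fold change was −0.47 (adjusted *p* = 0.00358). *Rb1cc1*, whose product FIP200 is the scaffold of the same complex, went the other way, from 58.2 to 81.5 CPM at baseline to 74.6 to 101 at day 7 (log2 fold change 0.23, adjusted *p* = 0.0220). The class III PI3-kinase list, to which *Becn1* belongs, had 0 of 8 genes called and 0 at an unadjusted *p* under 0.05. With TMM all 8 values were below 0, between −0.17 and −0.01. Their median was −0.095, beside 0.02 for all genes, and the share of all genes below 0 was not counted.

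Among the 10 genes for membrane supply and phagophore growth, to which *Vmp1* belongs, 3 were lower and none higher. *Atg2a*, a lipid transfer protein gene, fell from 20.7 to 25.5 CPM at baseline to 15.8 to 19.9 at day 7 (log2 fold change −0.36, adjusted *p* = 6.88e-04). *Wipi1* and *Wipi2* encode proteins that bind phosphatidylinositol 3-phosphate on the growing membrane, and they had log2 fold changes of −0.44 (adjusted *p* = 0.00223) and −0.21 (adjusted *p* = 0.0184). *Tmem41b*, which encodes a scramblase related to VMP1, had 8.38 to 11.6 CPM at baseline and 8.36 to 13.2 at day 7. In the ATG8 conjugation list, which holds *Atg5* and *Atg7*, 0 of 11 genes were called and 2 had an unadjusted *p* under 0.05.

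The 17 cargo receptor genes, which include *Sqstm1*, had 2 called higher and 3 lower. *Tax1bp1*, a ubiquitin-binding receptor, rose from 71.8 to 85.4 CPM at baseline to 84.5 to 97.9 at day 7, with 7 of 8 mice above every baseline mouse (log2 fold change 0.25, adjusted *p* = 4.10e-04). *Fundc1*, a mitophagy receptor, had a log2 fold change of 0.28 (adjusted *p* = 0.0177), and *Rtn3*, a receptor for tubules of the endoplasmic reticulum, −0.20 (adjusted *p* = 0.0269). Of the 10 genes for fusion with the lysosome 3 were lower and none higher, among them *Epg5* (−0.20, adjusted *p* = 0.0217) and *Plekhm1* (−0.39, adjusted *p* = 0.0294). No gene of that list had a positive log2 fold change with TMM. The list median was −0.089, beside 0.02 for all genes, and the share of all genes below 0 was not counted.

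**Figure D5:**
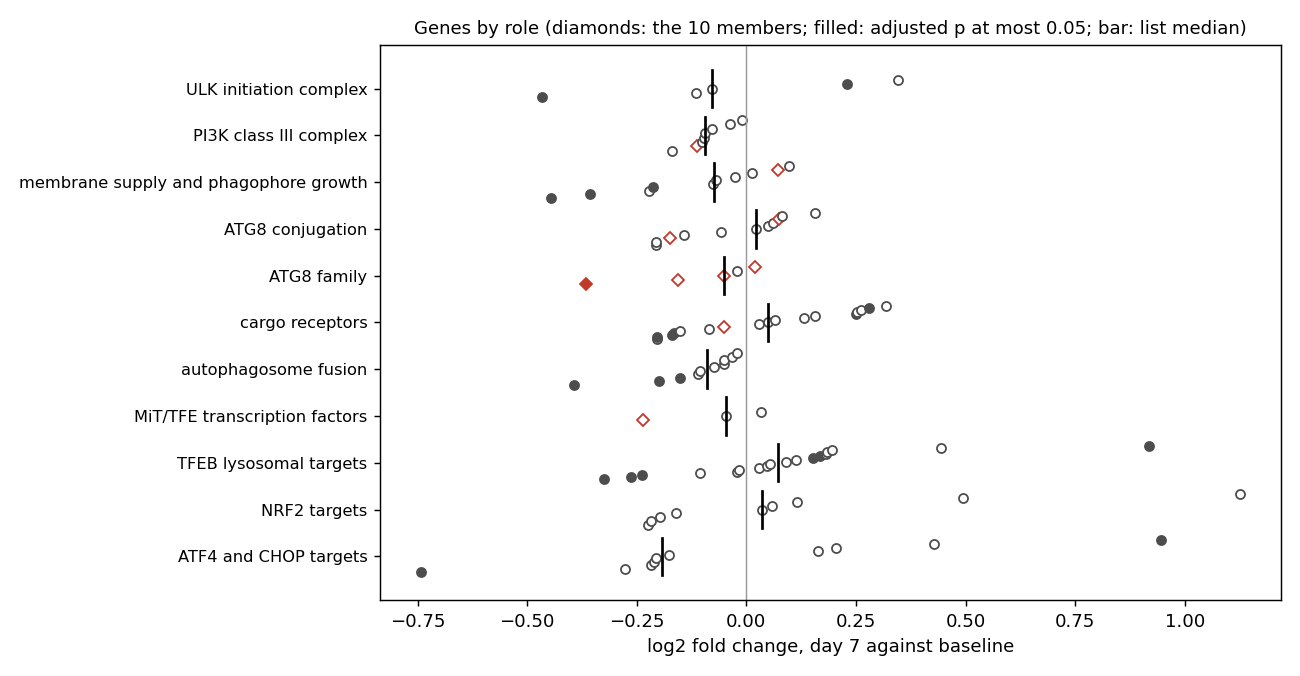
Log2 fold change at day 7 against baseline of the autophagy genes by step, and of TFEB, NRF2 and ATF4 and CHOP target genes. Diamonds are the 10 members, circles other genes, filled symbols have an adjusted *p* of at most 0.05, and bars are list medians. Called genes of the autophagy lists lie between −0.47 (*Ulk1*) and 0.28 (*Fundc1*), inside the 1.5-fold limit of 0.58.

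Relatives of *Tfeb* and target genes of TFEB, NRF2, ATF4 and CHOP were read in the same way. *Tfeb* has the relatives *Tfe3* and *Mitf*, with log2 fold changes of −0.05 and 0.03 at day 7, and neither passed the test. Of 18 lysosomal genes known as TFEB targets, 3 were higher and 3 lower at day 7 (33.3%), and none was called at day 14, with 3 at an unadjusted *p* under 0.05. *Lamp1*, an abundant lysosomal membrane protein gene, had 189 to 220 CPM at baseline and 156 to 186 at day 7 (log2 fold change −0.24, adjusted *p* = 0.00161). *Lamp2*, which encodes another protein of that membrane, was higher (0.17, adjusted *p* = 0.0238). p62 can hold KEAP1 and so free NRF2, and of 9 NRF2 target genes tested 0 were called at day 7 or day 14, with 3 and 0 at an unadjusted *p* under 0.05. *Hmox1*, an NRF2 target, had 0.807 to 2.26 CPM at baseline and 1.22 to 3.67 at day 7. Of 10 target genes of ATF4 and CHOP, factors of the stress response that can raise autophagy genes, *Atf3* was higher (log2 fold change 0.94, adjusted *p* = 0.0481) and *Psat1*, an enzyme of serine synthesis, was lower (−0.74, adjusted *p* = 3.76e-04) at day 7. At day 14 none was called and none had an unadjusted *p* under 0.05.

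TFEB binds a site known as the CLEAR motif, whose core is CACGTG. That core was searched for in RefSeq promoter windows of 300 bases around gene starts on GRCm38.p6, and it reads the same on both strands. It was found in 7.15% of all 32851 windows. Windows were given for 8 of the 10 members, 12 windows in all, and 2 of the 12 held it. In *Atg5* its first base was at −14 from the start of the window's transcript. In *Atg7* it was at −132, in a window (chr6:114670846-114671145) of an alternative start that lies inside the gene, downstream of the gene start given above. Among TFEB lysosomal targets it was found in 9 of 16 windows. Those genes were listed because they are known TFEB targets, so that share is no independent comparison. In the windows of the 8 autophagy lists together the core was found in 10 of 78 (12.8%), with single lists from 0% to 42.9%. A match is a description of letters and not of binding.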

How the data were processed

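The deposited values are whole counts of read fragments per gene symbol for 23 mice. For this, the authors removed ribosomal RNA from total RNA, made stranded paired-end libraries, examined and trimmed the reads (FastQC, Trim Galore, cutadapt), aligned them to mm10 with STAR (2.5.2a in the submitters' processing notes) and counted uniquely mapped fragments with featureCounts. The annotation and strand setting of that counting are not given in the sources used here. One further day 14 mouse is not analysed here.

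The quasi-likelihood test of edgeR 4.0.16 was run in R 4.3.3 on TMM-scaled counts, through filterByExpr, estimateDisp, glmQLFit (robust) and glmQLFTest. The 23 mice entered 1 fit that adjusted for sex and tested 12195 genes. The sex by time interaction came from a fit of 6 groups (12933 genes). *P*-values are two-sided and adjusted with the Benjamini-Hochberg method over all genes tested. The labels number the mice separately, so the spread is taken as that between animals. The SE restates the F test and is no separate estimate. The floor of 3 counts covers counting error only. CPM per kb uses the principal transcript of GENCODE vM21, and 75-base windows of it were searched for in the transcripts of other genes. Single values were compared with exact permutation tests. Likeness is Pearson's r of log2 CPM (prior count 2) among genes with a mean above 3. Of the list genes, *Rubcn* and *Retreg1* were matched under older symbols.

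All 10 members are named, with at most 10 other autophagy genes by smallest *p* among those called (*Tmem41b*, *Gabarapl2*, *Tfe3* and *Mitf* were added after their values were seen) and at most 3 genes of each other list. Members and lists were chosen with earlier results of these data known. Alternatives were DESeq2 1.42.0, its size factors in edgeR, total counts with and without the 20 most abundant genes, no filter, at least 10 counts in every mouse, no covariate, only the mice compared, each sex alone and leaving out each mouse. The edgeR fit of time points was tested on simulated counts that held no difference between the sexes. The interaction fit, DESeq2 and the permutation tests were not. Python 3.11.15 was used with scipy 1.17.1.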

Additional observations from a re-analysis of the deposited data

How the results depend on the processing

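The fall of *Map1lc3a* at day 7 was called under each alternative except females alone (no member and 4.31% of all genes called) and total counts. Counts of called members moved under total counts to 8 at day 7, 4 at day 14 and 6 for day 14 against day 7 (33.7% of all genes called), and DESeq2 gave 1 for the last (1.74%). Leaving out 1 mouse gave 0 to 1 for day 14 against day 7, the 1 being *Map1lc3a* without day 7 mouse 11 or day 14 mouse 21. The remaining counts of called members and DEGs did not change. The summed ATG8 share differed by 8.72e-05, 1.83e-04 and 9.55e-05 percentage points (day 7 and day 14 against baseline, day 14 against day 7) without the 20 most abundant genes, and by −9.63e-04, −1.67e-04 and 7.96e-04 over TMM-scaled library sizes. The cause was not tested. No paired analysis was possible because no mouse number occurs in more than 1 group. *Tfeb* had 15 to 68 counts and a biological coefficient of variation of 27.1%, and their parts in its wide intervals were not tested.

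Values that changed sign are log2 fold changes. With total counts at day 7 they became 0.40 for *Sqstm1*, 0.083 for *Map1lc3a*, 0.29 for *Map1lc3b*, 0.39 for *Gabarapl1*, 0.34 for *Becn1*, 0.28 for *Atg7* and 0.23 for *Tfeb*. At day 14 they became 0.21 for *Sqstm1*, 0.21 for *Map1lc3a*, 0.10 for *Map1lc3b*, 0.16 for *Gabarapl1* and 0.16 for *Becn1*. For day 14 against day 7 they became −0.19 for *Sqstm1*, −0.19 for *Map1lc3b*, −0.18 for *Gabarap*, −0.18 for *Becn1* and −0.16 for *Atg5*. Total counts without the 20 most abundant genes gave 0.027 for *Sqstm1* and 0.025 for *Gabarapl1* at day 7, 0.016 for *Sqstm1* and 0.013 for *Map1lc3a* at day 14, and −0.011 for *Sqstm1*, −0.013 for *Map1lc3b*, −0.0062 for *Gabarap* and −0.0032 for *Becn1* between them. Day 14 values of *Sqstm1* were 0.0083 with no filter, 0.0069 with 10 counts in every mouse and 0.080 in females. Those of *Map1lc3a* were 0.0070, 0.0049 and 0.16, and 7.09e-04 with no covariate. *Gabarapl1* was 0.0037 at day 7 in females, and for day 14 against day 7 it was 1.86e-04 in DESeq2, 0.0032 with no filter and 0.051 in males. *Atg5* in males was −0.061 at day 7, −0.072 at day 14 and −0.011 between them. Without 1 mouse, *Gabarap* ran from −0.015 to 0.063 and *Gabarapl1* from −0.12 to 0.0012 at day 7, and *Sqstm1* from −0.032 to 0.028 and *Map1lc3a* from −0.059 to 0.042 at day 14. For day 14 against day 7, *Vmp1* ran from −0.052 to 0.022, *Map1lc3b* from −0.0049 to 0.078 and *Gabarapl1* from −0.047 to 0.064. None of these values was called with TMM in edgeR except that of *Map1lc3a* at day 7.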

Other observations

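In 72 groups of mice (23 genes and the summed ATG8 share in each of 3 groups), no mouse stood apart by Dixon's 95% criterion. Chance alone would flag about 1 in 20 groups.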
